A study of Homo sapiens with 24 samples.

Results

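10 genes that serve antigen presentation but lie outside the major histocompatibility complex (MHC) were followed in RNA-seq counts from OE33, an established human cell line from esophageal adenocarcinoma (EAC). The members were B2M, NLRC5, CIITA, CD74, ERAP1, ERAP2, PSMB10, PSME1, PSME2 and CD274, chosen by name, and each symbol matched 1 of the 61860 Ensembl gene identifiers in the tables. All 10 passed the filter on low counts in each of the 4 experiments, which held 24 libraries in 8 groups of 3. In the first experiment, male BALB/c-nu nude mice, bought at 4 weeks of age, were fed for 8 weeks on chow rich in fat (HFD) or on ordinary chow (ND). OE33 cells were then implanted under the skin, and the tumors were taken 21 days later. HFD mice entered the study only above a body weight limit, so the diet groups also differed in weight by design. Nude mice lack mature T cells and keep myeloid and NK cells. The other 3 experiments used cultured OE33 cells: a plasmid for HA-tagged TRIM15, a ubiquitin ligase, against empty vector (EV) for 48 h; an shRNA plasmid against YY2, a zinc finger transcription factor, against shControl for 72 h; and an shRNA plasmid against FOXRED1, a complex I assembly factor of mitochondria, against its own shControl for 72 h. No group carried a cytokine treatment, and the labels do not say whether libraries of a group came from separate animals or cultures, so p-values measure the spread between these libraries, which may be technical.

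Class I molecules show peptides from inside the cell to CD8 T cells. The proteasome cuts proteins into peptides, the aminopeptidases ERAP1 and ERAP2 trim them in the endoplasmic reticulum, and B2M is the light chain without which class I heavy chains do not reach the surface. Class II molecules, normally a feature of dendritic cells, macrophages and B cells, are loaded with the help of the invariant chain CD74. NLRC5 and CIITA are the transactivators of class I and class II genes. CD274 encodes PD-L1, the ligand that restrains T cells, and interferon-gamma is the best known inducer of the whole set.

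Many genes of this route carry an interferon-stimulated response element near their start, and the promoter stretches of the members that hold its core are printed here because the element is shared across the set. In the RefSeq promoter table (GRCh38.p14, 250 bases before to 50 bases after each annotated start), 8 of the 10 members had an entry; NLRC5 and CIITA had none. All 8 held the core GAAANNGAA of the interferon-stimulated response element, on one strand or the other, at 1 annotated start or more. Counted by start and not by gene, 8.1% of the 35116 promoters in the table held it. Each line gives 60 bases 5′ to 3′ on the gene's own strand, in lower case with matches to the core in capitals (in antisense orientation TTCNNTTTC). Overlapping or adjoining matches run together in capitals.
B2M, bases -167 to -108 from the start, chr15:44711350-44711409, plus strand: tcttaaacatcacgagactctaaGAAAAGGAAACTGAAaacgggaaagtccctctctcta
CD74, bases -198 to -139 from the start, chr5:150413049-150413108, minus strand: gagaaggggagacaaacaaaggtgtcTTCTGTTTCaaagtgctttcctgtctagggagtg
ERAP2, bases -60 to -1 from the start, chr5:96876440-96876499, plus strand: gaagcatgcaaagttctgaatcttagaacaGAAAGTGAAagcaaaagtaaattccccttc
PSMB10, bases -60 to -1 from the start, chr16:67936851-67936910, minus strand: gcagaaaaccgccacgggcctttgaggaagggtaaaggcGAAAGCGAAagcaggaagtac
PSME2, bases -60 to -1 from the start, chr14:24146611-24146670, minus strand: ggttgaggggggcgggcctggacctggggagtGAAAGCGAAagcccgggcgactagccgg
CD274, bases -230 to -171 from the start, chr9:5450312-5450371, plus strand: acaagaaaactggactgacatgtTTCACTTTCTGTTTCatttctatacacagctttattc
The ERAP2 stretch precedes the second of the 2 annotated starts, and the first had no match. ERAP1 also had 2 annotated starts, and its second had no match. The PSMB10, PSME2 and ERAP2 stretches lie inside the GENCODE 29 gene spans, which begin further upstream, and the others lie upstream of the gene. In ERAP1 and PSME1 the only match was past the start, with its first base at position 4 for ERAP1 (TTCACTTTC) and at position 7 for PSME1 (TTCGCTTTC). The PSMB10 and PSME2 matches were the same 9 bases, 21 and 28 bases before the start, respectively. The gamma-activated site TTCNNNGAA, found in 7.7% of promoters, was present only in CD274 among the 8, 125 bases before the start.
CD274, bases -151 to -92 from the start, chr9:5450391-5450450, plus strand: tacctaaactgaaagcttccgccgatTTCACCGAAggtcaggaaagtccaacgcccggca
The half-palindrome GGNNNTTCC of NF-kB, found in 20.1% of promoters, was present in B2M, CD74, ERAP1 and CD274. In B2M and CD274 the antisense match was GGAAAGTCC in both genes. The YY1/YY2 core AANATGGC, found in 6.6% of promoters, was in none of the 8. Both strands were searched for each motif. The GAS match of CD274 overlaps none of its other matches, and a match is a description of letters, not of binding.

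OE33 cells transcribed every member without added cytokine. On a scale that divides counts by exon length and library size (RPKM, mean ± SD, n = 3), the shControl cells of the YY2 experiment had B2M at 104 ± 2.57, PSME1 at 90.5 ± 3.15 and CD74 at 77.5 ± 0.362. Next came the peptidase ERAP2 at 42.0 ± 0.794, the proteasome activator subunit PSME2 at 33.4 ± 0.374 and CD274 at 18.0 ± 0.717. ERAP1 followed at 14.5 ± 0.529, NLRC5 at 9.47 ± 0.314, PSMB10 at 8.09 ± 0.599 and CIITA last at 0.781 ± 0.0121. No 2 neighbours in that order overlapped between their libraries in this group. B2M, PSME1 and CD74 held the top of the order in ND, HFD, EV, HA-TRIM15, shYY2 and shFOXRED1 as well, whereas in the shControl cells of the FOXRED1 experiment ERAP2 (48.2 ± 1.38) stood above CD74 (44.7 ± 2.57). CIITA, at 0.440 to 1.56 RPKM in group means, was lowest in all 8 groups. Neighbours whose libraries overlapped were B2M and PSME1 in ND and HA-TRIM15, PSME2 and ERAP2 in EV, ERAP1 and PSMB10 in ND and shYY2, CD274 and PSMB10 in the shControl cells of the FOXRED1 experiment, and NLRC5 and PSMB10 in shFOXRED1. Length was the union of all annotated exons, which is longer than the main transcript (6079 bases for B2M), so the order between genes depends on the annotation.

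The same gene also differed between control groups. CD274 lay at 26.5 to 30.6 CPM (counts scaled to library size, with TMM factors) in the shControl libraries of the FOXRED1 experiment and at 70.9 to 76.7 CPM in those of the YY2 experiment. CD74 ranged from 142 ± 8.19 CPM in the former to 322 ± 1.28 CPM in ND tumors. These experiments were counted and scaled separately, so such differences were not tested, and each result below sets a treated group against its own control.

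**Figure D1:**
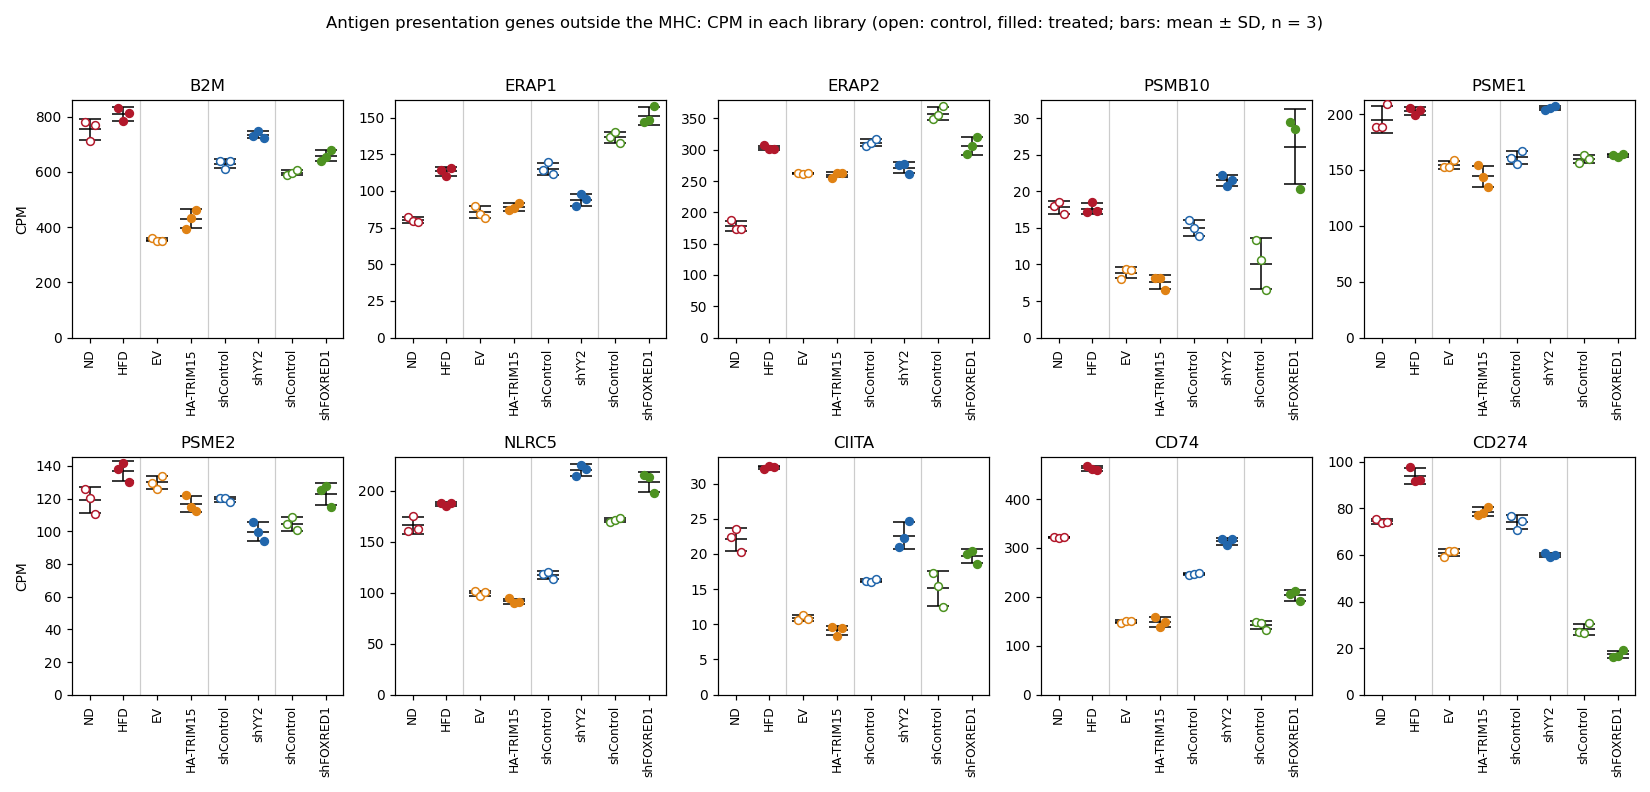
Abundance of the 10 genes in each library, in CPM on a linear axis from 0, with open points for control libraries, filled points for treated libraries and bars for the mean ± SD of 3. In HFD tumors CD74, ERAP1, ERAP2 and CIITA sit above every ND library, whereas CD274 in shFOXRED1 cells (16.3 to 19.2 CPM) sits below every library of its control (26.5 to 30.6 CPM).

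Total counts per library ranged from 14299807 to 45994561. The targeted genes moved as labelled. TRIM15 was at 0 counts in all 3 EV libraries and at 111, 130 and 181 counts with HA-TRIM15, YY2 fell from 2.35 ± 0.0241 to 0.661 ± 0.0628 CPM with shYY2, and FOXRED1 fell from 17.4 ± 0.286 to 10.1 ± 1.19 CPM with shFOXRED1. FOXRED1 was also lower with shYY2 (log2 fold change -0.89 ± 0.064, SE). The 7 epithelial markers (such as KRT19, EPCAM and CDH1) summed to 10957 to 16406 CPM. Leukocyte markers, which matter here because CD74, CIITA and class II genes are leukocyte genes, summed to 10.8 to 44.1 CPM over 13 genes, mostly ITGAM, ITGAX and CD14. The defining leukocyte gene PTPRC had at most 3 counts in any library, CD3E at most 2, MS4A1 at most 1 and TYROBP at most 4. In bulk RNA, fewer cells of a type and less RNA per cell cannot be told apart. In the tumors the host's leukocytes and stroma were mouse cells, whereas these markers are human genes. How far the markers count host RNA is not known.

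In tumors from HFD mice, 8 of the 10 members were higher than in ND tumors and 0 were lower (edgeR quasi-likelihood test, Benjamini-Hochberg adjusted p below 0.05 over 17012 genes). No member was lower at an unadjusted p below 0.05 (0 of 10) or in DESeq2 (0 of 10) either. In the background, 25.6% of genes tested were called higher and 23.9% lower. The peptide trimming enzymes, the class II pair CIITA and CD74, and CD274 had the larger changes. The median log2 fold change of the members was 0.27, against -0.012 over all genes tested. In 8 of the 10 the libraries of the diet groups did not overlap, as in 56.2% of all genes tested.

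ERAP2, which prefers basic ends of peptides, had 188, 174 and 174 CPM in the ND libraries and 307, 300.5 and 300.5 CPM in the HFD libraries. The lowest HFD library was thus above the highest ND library by more than the spread within either group, and the fold change was 1.69 (log2 0.76 ± 0.038, SE, adjusted p = 1.16e-10). Its neighbour ERAP1 on chromosome 5, which sets the final length of many class I peptides, had 82.3, 79.5 and 78.8 CPM with ND and 114, 109.9 and 116 CPM with HFD (log2 0.50 ± 0.037, adjusted p = 1.39e-08). ERAP1 overlaps CAST on the opposite strand, and the sources used here do not settle whether counting used strand. CAST went from 371 ± 15.6 to 350 ± 10.4 CPM (SD, n = 3), a log2 ratio of -0.086, while ERAP1 rose.

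CD74, the invariant chain that blocks and escorts class II molecules, had 323, 321 and 322 CPM with ND. The HFD libraries had 469, 462 and 459 CPM, without overlap, a fold change of 1.44 (log2 0.52 ± 0.032, adjusted p = 1.33e-09). CIITA, the class II transactivator, rose by a like factor from 22.4, 23.6 and 20.3 to 32.1, 32.5 and 32.3 CPM (log2 0.54 ± 0.058, adjusted p = 1.02e-06). DEXI overlaps CIITA on the opposite strand and was at 11.1 ± 1.39 CPM in ND and 9.71 ± 0.516 CPM in HFD tumors. Its log2 ratios of treated over control were -0.20 with HFD, -0.088 with HA-TRIM15, -0.74 with shYY2 and 0.049 with shFOXRED1. The part of DEXI in the CIITA results was not tested. The HLA class II genes that CD74 and CIITA serve were near 0, as given below with the MHC-encoded genes. The summed leukocyte markers were 21.4 to 22.2 CPM in ND and 25.4 to 26.4 CPM in HFD tumors. LAPTM5 (log2 1.56) and ITGAX (0.91) were higher, ITGAM (-0.32) was lower and CD14 was not called. TYROBP, NKG7, CD3E, MS4A1 and PTPRC stayed at 3 counts or fewer in each tumor library. The 7 stroma and endothelium markers summed to 30.7 to 33.8 CPM in ND and 24.2 to 27.0 CPM in HFD tumors, mostly COL1A1, the 1 that could be tested (-0.33). The markers are human genes and may miss the mouse cells of the host. Their part in the result was not tested.

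CD274 had 75.6, 73.6 and 74.2 CPM with ND and 97.8, 91.7 and 92.3 CPM with HFD, so every HFD library was higher (log2 0.34 ± 0.039, adjusted p = 2.09e-06). The class I transactivator NLRC5 changed less, from 160.2, 175 and 163 to 188, 185 and 188 CPM (log2 0.17 ± 0.039, adjusted p = 0.00189). PSME2, the beta subunit of the PA28 activator that caps the proteasome, rose by log2 0.19 ± 0.047 (adjusted p = 0.00271). Its partner subunit PSME1 had a log2 fold change of 0.06 ± 0.042 (adjusted p = 0.251), and PSMB10, the immunoproteasome subunit that replaces PSMB7, had -0.026 ± 0.065 (adjusted p = 0.767). B2M was 754 ± 37.0 CPM in ND and 811 ± 24.6 CPM in HFD tumors (log2 0.11 ± 0.039, adjusted p = 0.0343). The B2M call was lost without HFD replicate 1, HFD replicate 3 or ND replicate 2 (adjusted p = 0.135, 0.0813 and 0.088) and with a filter of at least 10 counts in every library (0.0548), and PSME1 was called without ND replicate 3 (0.0176). At a fold change of at least 1.2, 5 members stayed called: ERAP2, CIITA, CD74, ERAP1 and CD274.

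**Figure D2:**
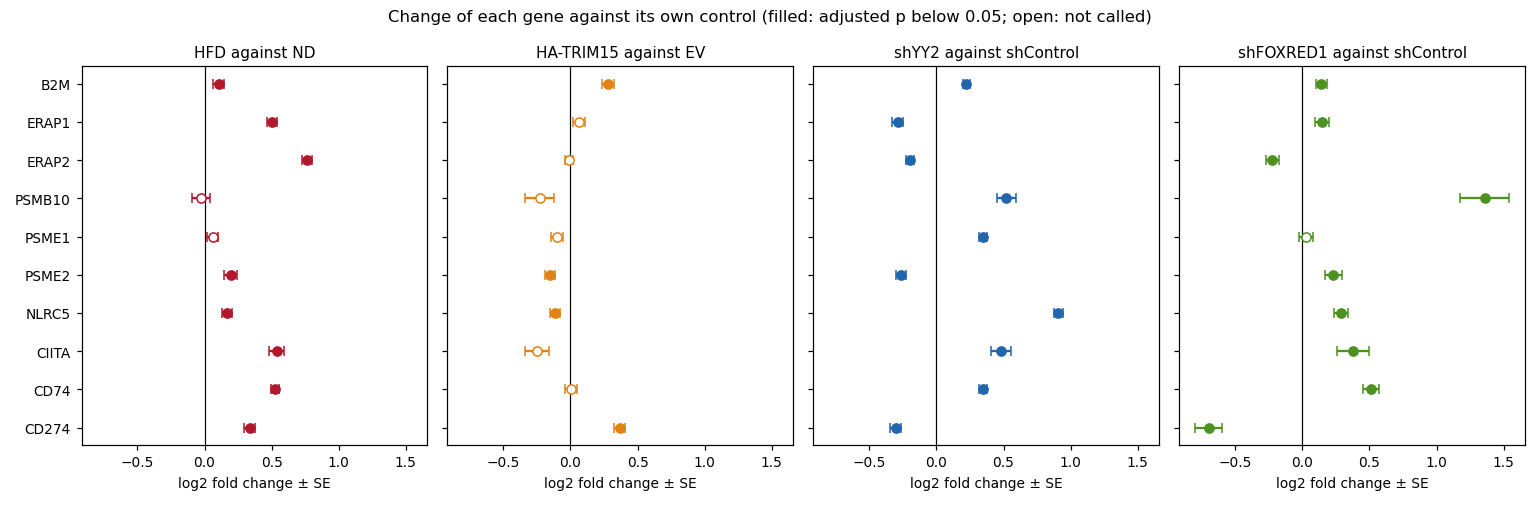
Log2 fold change (± SE) of each gene against its own control in the 4 experiments, filled where the adjusted p was below 0.05. The HFD changes lie at or above 0 except PSMB10 (-0.026), and PSMB10 with shFOXRED1 (1.36) and NLRC5 with shYY2 (0.91) lie farthest from 0.

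With HA-TRIM15 4 members were called. CD274 and B2M rose and 2 members fell (PSME2 and NLRC5), where 12.5% of the 15745 genes tested were called higher and 9.53% lower. The median over the members was -0.055, against -0.0065 over all genes tested. The libraries did not overlap in 5 of the 10 members and in 37.7% of all genes tested.

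CD274 had 59.2, 61.9 and 61.7 CPM in EV and 77.4, 77.9 and 80.7 CPM in HA-TRIM15 libraries, again without overlap (log2 0.37 ± 0.04, adjusted p = 1.49e-05). B2M was even across EV, with 361, 351 and 352 CPM. It spread more with HA-TRIM15, with 395, 435 and 464 CPM, all above EV (log2 0.28 ± 0.045, adjusted p = 0.000534). TRIM15 itself was lowest in HA-TRIM15 replicate 1 (111 counts) and highest in replicate 3 (181 counts), and B2M had the same order over these 3 libraries, which is too few for a correlation.

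The class II pair did not follow the diet pattern. CD74 had 146, 151 and 150.0 CPM in EV and 159.5, 139 and 149 CPM with HA-TRIM15, so the groups overlapped (adjusted p = 0.987). CIITA had 10.6, 11.3 and 10.8 CPM in EV and 9.55, 8.39 and 9.48 CPM with HA-TRIM15, and its log2 change, -0.25 ± 0.089, missed the threshold (adjusted p = 0.058). ERAP2 lay at 255 to 263 CPM in all 6 libraries (adjusted p = 0.832), and ERAP1 at 81.8 to 92.0 CPM (adjusted p = 0.336). The PA28 subunits had log2 fold changes of -0.15 ± 0.04 for PSME2 (adjusted p = 0.0138) and -0.099 ± 0.044 for PSME1 (adjusted p = 0.122), and PSMB10 had -0.23 ± 0.11 (adjusted p = 0.151). NLRC5 fell from 101, 96.8 and 100.2 to 94.6, 89.9 and 90.6 CPM (log2 -0.11 ± 0.038, adjusted p = 0.0418). That call was lost in DESeq2 (adjusted p = 0.074) and without any 1 library other than HA-TRIM15 replicate 1 (0.0638 to 0.148), and the PSME2 call without HA-TRIM15 replicate 2 (0.0568) or EV replicate 3 (0.0801). Leaving out HA-TRIM15 replicate 1 added CIITA (0.035) and PSME1 (0.00151) to the members that fell, and with all libraries neither PSME2 nor NLRC5 fell by 1.2-fold.

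Knockdown of YY2 moved all 10 members. In all, 6 rose (NLRC5, PSMB10, CIITA, PSME1, CD74 and B2M) and 4 fell (CD274, ERAP1, PSME2 and ERAP2). This was an experiment with many changes, since 36.8% of the 16006 genes tested were called higher and 38.1% lower. Groups did not overlap in all 10 members and in 76.3% of genes tested. The members' median log2 fold change was 0.28 against -0.0081 over all genes tested, but their median absolute change, 0.32, was below the 0.47 of all genes tested.

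NLRC5 changed most. The shControl libraries had 118, 121 and 113 CPM. With shYY2 they had 214, 225 and 221 CPM, well above every control library (fold 1.88, log2 0.91 ± 0.033, adjusted p = 9.53e-13). Its class I targets inside the set moved less, with B2M at 641, 612 and 638 CPM in shControl and 731, 749.8 and 725 CPM in shYY2 (log2 0.22 ± 0.028, adjusted p = 2.34e-06). PSMB10 rose from 16.1, 15.0 and 13.9 to 22.2, 20.8 and 21.5 CPM (log2 0.52 ± 0.072, adjusted p = 7.17e-06), without overlap.

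The PA28 subunits, which assemble into one ring, went opposite ways. PSME1 had 161, 156 and 167 CPM in shControl and 203, 206 and 207 CPM in shYY2 (log2 0.35 ± 0.031, adjusted p = 5.46e-08). PSME2 had 120.2, 120.4 and 118 CPM in shControl and 105, 99.6 and 93.9 CPM in shYY2 (log2 -0.26 ± 0.039, adjusted p = 1.43e-05). Neither gene's groups overlapped. EMC9, on the other strand of PSME1, was at 13.2 ± 1.03 CPM in shControl and 9.75 ± 0.628 CPM in shYY2, and RNF31, on the other strand of PSME2, at 1.80 ± 0.0338 and 2.19 ± 0.349 CPM. The 6 processed pseudogenes of PSME2 could share its reads, and the most abundant, PSME2P1, had at most 34 counts in any library.

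Both peptidases fell, ERAP1 from 114, 119 and 111 to 89.5, 98.0 and 94.2 CPM (log2 -0.29 ± 0.039, adjusted p = 5.43e-06) and ERAP2 from 311 ± 5.89 to 272 ± 9.26 CPM (log2 -0.20 ± 0.031, adjusted p = 3.19e-05). CAST, which overlaps ERAP1 and is more abundant, moved with it from 387 ± 7.93 to 316 ± 16.1 CPM (log2 ratio -0.29), and its part in the ERAP1 result was not tested. On the class II side, CIITA had 16.1, 16.0 and 16.5 CPM in shControl and 20.9, 22.2 and 24.7 CPM in shYY2 (log2 0.48 ± 0.072, adjusted p = 1.73e-05), and CD74 rose from 247 ± 1.15 to 314 ± 7.49 CPM (log2 0.35 ± 0.029, adjusted p = 1.80e-08). The summed leukocyte markers were 17.2 to 19.2 CPM in shControl and 22.6 to 23.4 CPM in shYY2 libraries. Of the 4 tested, ITGAX rose (log2 2.45, from 2.12 to 11.6 CPM), ITGAM fell (-0.75, from 10.4 to 6.15 CPM), and CD14 and LAPTM5 were not called, while PTPRC had no more than 2 counts. The stroma and endothelium markers went from 10.8 to 11.2 CPM in shControl to 42.6 to 44.4 CPM in shYY2, almost all of it COL1A1 (log2 2.00), and the other 6 had at most 7 counts. The part of these markers was not tested. CD274 fell from 76.7, 70.9 and 74.5 to 60.9, 58.96 and 60.1 CPM (log2 -0.30 ± 0.039, adjusted p = 3.59e-06). Each call held without any 1 library, and B2M and ERAP2 changed by less than 1.2-fold.

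Knockdown of FOXRED1 raised 7 members (PSMB10, CD74, CIITA, NLRC5, PSME2, ERAP1 and B2M) and lowered 2 (CD274 and ERAP2), with PSME1 not called. Of 15730 genes tested, 16.8% were called higher and 19.7% lower. The members' median was 0.19, against 0.012 over all genes tested, and groups did not overlap in 9 of 10 members and 46.7% of genes tested.

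PSMB10 had the largest change of any member in the 4 experiments. Its shControl libraries had 242, 159 and 95 counts (13.3, 10.6 and 6.46 CPM), and the shFOXRED1 libraries had 532, 528 and 296 counts (29.5, 28.6 and 20.3 CPM). Replicate 3 was lowest in each group, and the groups did not overlap (fold 2.56, log2 1.36 ± 0.18, adjusted p = 1.83e-05). CIITA, also of low abundance, had 17.3, 15.5 and 12.5 CPM in shControl, lowest again in replicate 3, and 20.0, 20.4 and 18.5 CPM with shFOXRED1 (log2 0.38 ± 0.12, adjusted p = 0.0172). CD74 rose from 148, 146 and 133 to 205, 213 and 191 CPM (log2 0.51 ± 0.06, adjusted p = 3.96e-06). Leukocyte markers summed to 42.2 to 44.1 CPM in shControl and 38.6 to 43.2 CPM in shFOXRED1 libraries, and 0 of the 5 tested were called in edgeR or in DESeq2 (1 at an unadjusted p below 0.05). Stroma and endothelium markers summed to 24.5 to 26.2 CPM in shControl and 39.1 to 42.5 CPM in shFOXRED1, with COL1A1 up by log2 0.71, and their part was not tested. A second annotated gene, ENSG00000261884, overlaps PSMB10 on the same strand and had 1.72 ± 0.457 CPM in shControl and 2.12 ± 0.122 CPM in shFOXRED1, so part of the PSMB10 reads could have been split between them.

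CD274 went the other way. It had 27.0, 26.5 and 30.6 CPM in shControl and 16.3, 16.4 and 19.2 CPM with shFOXRED1, a fold change of 0.616 (log2 -0.70 ± 0.10, adjusted p = 3.24e-05). ERAP2 fell from 349, 355 and 369 to 293, 305 and 321 CPM (log2 -0.22 ± 0.051, adjusted p = 0.00218), while ERAP1 was 136 ± 3.68 CPM in shControl and 151 ± 5.97 CPM with shFOXRED1 (log2 0.15 ± 0.056, adjusted p = 0.0487). NLRC5 rose from 171 ± 2.04 to 209 ± 9.96 CPM (log2 0.29 ± 0.054, adjusted p = 0.000457), PSME2 by log2 0.23 ± 0.061 (adjusted p = 0.00644) and B2M by log2 0.14 ± 0.044 (adjusted p = 0.0179). PSME1 stayed at 156 to 165 CPM in all 6 libraries (adjusted p = 0.706). The ERAP1 call was lost without any 1 of the 6 libraries (adjusted p = 0.0573 to 0.165) and with no filter on low counts (0.112). Without shFOXRED1 replicate 2, shControl replicate 1 or shControl replicate 2 the B2M call was lost (0.0575, 0.0961 and 0.0725), and without shFOXRED1 replicate 2 or shControl replicate 3 the CIITA call was lost (0.0604 and 0.103), so that 4 members were called higher without shFOXRED1 replicate 2.

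The effects of the 2 knockdowns were compared as a difference of differences in one fit of 17146 genes, of which 54.4% differed. Among the members, 7 differed. NLRC5 rose more with shYY2 (difference 0.62 ± 0.062 on the log2 scale, SE, adjusted p = 2.43e-08), and PSMB10 rose more with shFOXRED1 (difference -0.84 ± 0.22, adjusted p = 0.00317). PSME2 (-0.49 ± 0.073, adjusted p = 6.25e-06) and ERAP1 (-0.44 ± 0.067, adjusted p = 9.29e-06) fell with shYY2 and rose with shFOXRED1. CD274 fell in both and fell further with shFOXRED1 (difference 0.40 ± 0.098, adjusted p = 0.0016). PSME1 rose more with shYY2 (difference 0.32 ± 0.057, adjusted p = 6.26e-05). The CD74 difference, -0.17 ± 0.067 (adjusted p = 0.0396), was lost without each of 9 of the 12 libraries in turn (adjusted p = 0.0541 to 0.132 where it was lost), in DESeq2 (0.0682), with DESeq2 size factors (0.0677), with no filter on low counts (0.267) and with at least 10 counts in every library (0.0999). For B2M, CIITA and ERAP2 the difference missed the threshold, with 0.079 ± 0.051, 0.10 ± 0.14 and 0.026 ± 0.059 (adjusted p = 0.195, 0.555 and 0.734). The B2M difference was called with at least 10 counts in every library (0.12, adjusted p = 0.0485).

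TRIM15 was itself higher in HFD tumors, at 14, 12 and 24 counts against 1, 0 and 0 counts in ND, so the diet effect was also set against that of HA-TRIM15. Of 17160 genes tested, 35.2% differed, and 7 members did. CIITA (difference 0.82 ± 0.10, adjusted p = 2.54e-06), ERAP2 (0.80 ± 0.048, adjusted p = 8.83e-11), CD74 (0.55 ± 0.054, adjusted p = 9.87e-08) and ERAP1 (0.47 ± 0.057, adjusted p = 1.76e-06) had the larger gaps, each higher with the diet. PSME2, NLRC5 and PSME1 differed by 0.38, 0.31 and 0.19 (adjusted p = 0.000145, 0.0001 and 0.0248). For CD274 the difference was -0.00056 ± 0.054 (adjusted p = 0.996), and the separate log2 fold changes were 0.34 with HFD and 0.37 with HA-TRIM15. B2M and PSMB10 missed the threshold (adjusted p = 0.0943 and 0.15). The PSME1 difference was lost without HFD replicate 1, ND replicate 1, ND replicate 2, HA-TRIM15 replicate 3 or EV replicate 3 (0.0512 to 0.0739), and B2M was called without ND replicate 2 (0.0254) or HA-TRIM15 replicate 1 (0.00572) and with at least 10 counts in every library (0.0476). Tumors in mice and transfected cells in culture differ in more than TRIM15, and those parts cannot be told apart here.

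**Figure D3:**
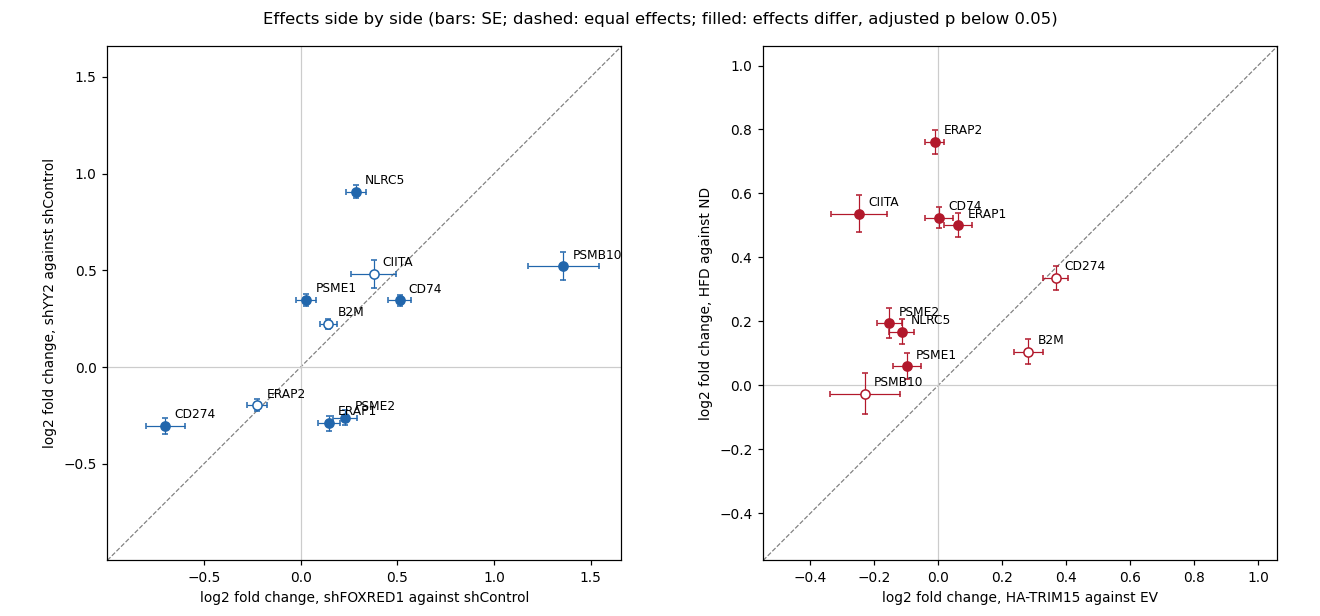
Log2 fold changes of the 10 genes in 2 experiments set against each other, with SE bars and a dashed line where effects are equal, filled where the difference passed the test. On the left PSMB10 lies far right (1.36 with shFOXRED1, 0.52 with shYY2) and NLRC5 far above the line, and on the right CD274 lies on the line while ERAP2, CIITA, CD74 and ERAP1 lie above it.

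Over the 4 experiments B2M was the 1 member called higher in each, by log2 0.11 to 0.28, as were 0.613% of the 14519 genes tested in all 4. Its HFD and shFOXRED1 calls were lost without some single libraries, as given above. At a fold change of at least 1.2, B2M stayed called only with HA-TRIM15. NLRC5, CIITA and CD74 were each called higher in 3. CIITA and CD74 were called lower in none, whereas NLRC5 fell with HA-TRIM15. CD274 and PSME2 were also called in all 4, as were 6.79% of those genes in one direction or the other, CD274 higher with HFD and HA-TRIM15 and lower with both knockdowns, PSME2 higher with HFD and shFOXRED1 and lower with HA-TRIM15 and shYY2. The HA-TRIM15 calls of NLRC5 and PSME2 were lost without some single libraries, and that of NLRC5 also in DESeq2. ERAP2 was higher only with HFD and lower with both knockdowns, and PSME1 was called only with shYY2.

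The partners of the class I route were read from a list of 13 genes, all of which passed the filter. Most serve loading and trimming, but IRF2, SUSD6 and TMEM127 were also on it, so its counts mix roles. With HFD 8 were higher and 1 lower (median log2 0.16), where 25.6% and 23.9% of all genes tested were, led by BLMH, a cytosolic peptidase (log2 1.17 ± 0.054, adjusted p = 5.11e-11), the chaperone CANX (1.06 ± 0.035, adjusted p = 1.28e-12) and the endosomal peptidase LNPEP (0.52 ± 0.037, adjusted p = 7.81e-09). HA-TRIM15 gave 5 higher and 1 lower (median 0.021, against 12.5% and 9.53% of all genes tested), with PDIA3, the disulfide isomerase of the loading complex, at 0.20 ± 0.032 (adjusted p = 0.000509), CANX at 0.20 ± 0.028 (adjusted p = 0.000199) and the peptidase THOP1 at -0.15 ± 0.044 (adjusted p = 0.0197). With shYY2, 4 rose and 9 fell (median -0.27), against 36.8% and 38.1% of all genes tested. THOP1, which destroys free peptides in the cytosol, fell to 0.301 of its control (log2 -1.73 ± 0.043, adjusted p = 1.18e-14), the folding sensor UGGT1 by log2 -0.95 ± 0.031 (adjusted p = 2.51e-13), and IRF2, a factor that binds the response element shown above, rose by 0.90 ± 0.062 (adjusted p = 2.09e-09). With shFOXRED1, 3 rose and 7 fell (median -0.22, against 16.8% and 19.7% of all genes tested), with THOP1 at -0.70 ± 0.086 (adjusted p = 6.72e-06), UGGT1 at -0.46 ± 0.053 (adjusted p = 3.00e-06) and the tapasin-like editor TAPBPL at 0.49 ± 0.10 (adjusted p = 0.0011).

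With both knockdowns, in which PSMB10 rose, none of the constitutive proteasome subunits and other activators was called higher. Of 11 listed, 10 were tested in each experiment. Over all genes tested, 36.8% were called higher with shYY2, and 16.8% higher and 19.7% lower with shFOXRED1. The shares were 25.6% higher and 23.9% lower with HFD, and 12.5% and 9.53% with HA-TRIM15. With shYY2 all 10 fell (median -0.47), as did 38.1% of all genes tested, and 0 rose in edgeR, at an unadjusted p below 0.05 or in DESeq2. PSME3, the nuclear relative of the PA28 subunits, went from 251, 247 and 257 to 97.3, 93.5 and 93.4 CPM (log2 -1.41 ± 0.031, adjusted p = 3.72e-15), the catalytic subunit gene PSMB2 changed by log2 -0.87 ± 0.031 (adjusted p = 5.09e-13) and the assembly chaperone POMP by -0.62 ± 0.044 (adjusted p = 2.32e-09). With shFOXRED1 0 rose in edgeR, at an unadjusted p below 0.05 or in DESeq2, and 3 fell (median -0.12), namely PSMB2 (-0.33 ± 0.062, adjusted p = 0.000484), the activator PSME4 (-0.26 ± 0.056, adjusted p = 0.0014) and PSMB7 (-0.25 ± 0.055, adjusted p = 0.00191), the constitutive counterpart of PSMB10. With HFD, where PSMB10 was not called, 3 rose and 2 fell (median 0.011), including POMP at 0.29 ± 0.059 (adjusted p = 0.000547), PSME4 at 0.17 ± 0.04 (adjusted p = 0.00245) and PSMB5 at -0.16 ± 0.037 (adjusted p = 0.00202). With HA-TRIM15 1 rose, PSME4 (0.22 ± 0.035, adjusted p = 0.000601), and 3 fell, with PSMB5 at -0.16 ± 0.045 (adjusted p = 0.0182) and PSMB1 at -0.16 ± 0.042 (adjusted p = 0.014), for a median of -0.10, on the same side of 0 as PSMB10, which missed the threshold there.

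Class II route genes other than CIITA and CD74 numbered 15 on the list and 14 among the genes tested, and their counts are to be read against the same shares of all genes tested. HFD gave 7 higher and 3 lower (median 0.18, against 25.6% and 23.9% of all genes tested). CTSS, the protease that removes the last of the invariant chain, rose by 0.45 ± 0.048 (adjusted p = 9.34e-07), CTSL by 0.33 ± 0.036 (adjusted p = 1.18e-06), and NFYC, a subunit of the factor that holds CIITA at class II promoters, fell (-0.41 ± 0.06, adjusted p = 3.20e-05). HA-TRIM15 gave 5 higher and 1 lower (median 0.085, against 12.5% and 9.53%). Among them were NFYA at 0.21 ± 0.057 (adjusted p = 0.0173), NFYB at 0.18 ± 0.048 (adjusted p = 0.0139) and RFXANK at -0.27 ± 0.058 (adjusted p = 0.00387). For shYY2 the counts were 5 higher and 7 lower (median -0.076, against 36.8% and 38.1%). CTSL rose without overlap, from 100.1, 91.1 and 104 to 225, 224 and 219.6 CPM (log2 1.18 ± 0.04, adjusted p = 3.92e-13), NFYC was at -1.10 ± 0.078 (adjusted p = 2.89e-09), and SPPL2A, which clears the CD74 stub from membranes, was at -0.86 ± 0.043 (adjusted p = 3.42e-11). For shFOXRED1 the counts were 5 higher and 1 lower (median 0.12, against 16.8% and 19.7%). Among them were CTSS at 0.67 ± 0.063 (adjusted p = 2.84e-07), the ubiquitin ligase MARCHF8 at 0.64 ± 0.18 (adjusted p = 0.0107) and RFX5 at -0.58 ± 0.069 (adjusted p = 3.80e-06).

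Of 13 interferon-gamma signaling genes, all tested, 9 were higher with HFD (median 0.30, where 25.6% of all genes tested were higher) and 0 lower in edgeR, at an unadjusted p below 0.05 or in DESeq2. SOCS3, a feedback inhibitor of cytokine receptors, rose from 100, 109 and 94.6 to 257, 264 and 267 CPM (log2 1.37 ± 0.045, adjusted p = 1.17e-12), the phosphatase PTPN2 by 0.57 ± 0.053 (adjusted p = 1.67e-07) and the inhibitor SOCS1 by 0.52 ± 0.11 (adjusted p = 0.000928). These 3 genes dampen the pathway, while the transcription factor IRF1 (0.42 ± 0.049), chosen after its values were seen, carries it and was also called higher. With HA-TRIM15, 6 rose and 1 fell (median 0.16, against 12.5% and 9.53% of all genes tested), among them SOCS3 (0.70 ± 0.059, adjusted p = 1.08e-06), the kinase JAK2 (0.32 ± 0.06, adjusted p = 0.0017) and IRF9, which fell (-0.54 ± 0.16, adjusted p = 0.0222). With shYY2, 10 rose and 2 fell (median 0.41), against 36.8% and 38.1% of all genes tested. IRF9 rose (1.13 ± 0.13, adjusted p = 1.07e-06), SOCS3 rose (0.99 ± 0.035, adjusted p = 6.16e-13), and the receptor chain IFNGR1 fell from 293, 297 and 296 to 153, 156 and 144 CPM (log2 -0.97 ± 0.032, adjusted p = 2.92e-13). With shFOXRED1, 4 rose and 2 fell (median 0.058, against 16.8% and 19.7%), with IRF1 at 0.57 ± 0.061 (adjusted p = 1.13e-06), IRF9 at 0.54 ± 0.11 (adjusted p = 0.00112) and STAT2 at 0.36 ± 0.061 (adjusted p = 0.000199). IRF1 was the 1 gene of this list called higher in all 4 experiments, as were 0.613% of the 14519 genes tested in all of them.

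Other checkpoint ligands and regulators of CD274 protein were 14 on the list. With HFD 3 of the 12 tested were higher and 3 lower (median 0.091), near the shares of all genes tested, with the "don't eat me" ligand CD47 at 0.56 ± 0.035 (adjusted p = 1.35e-09), the TIGIT ligand PVR at 0.38 ± 0.036 (adjusted p = 2.35e-07) and the B7 family ligand VTCN1, of low abundance, at -0.96 ± 0.13 (adjusted p = 9.49e-06). With HA-TRIM15 4 of 11 were higher (median 0.12, against 12.5% of all genes tested) and 0 lower in edgeR or DESeq2 (1 at an unadjusted p below 0.05), including CD47 (0.25 ± 0.037, adjusted p = 0.000199), PVR (0.12 ± 0.035, adjusted p = 0.022) and CMTM6, which keeps PD-L1 protein at the membrane (0.12 ± 0.039, adjusted p = 0.0443). With shYY2 5 of 12 rose and 4 fell (median 0.012), against 36.8% and 38.1%. PVR fell from 209, 211 and 196 to 67.9, 63.5 and 65.9 CPM (log2 -1.64 ± 0.038, adjusted p = 5.76e-15), while NECTIN2, which shares its receptors, rose (0.83 ± 0.038, adjusted p = 1.39e-11) and VTCN1 rose (2.14 ± 0.22, adjusted p = 2.38e-07). With shFOXRED1 2 of 11 rose and 4 fell (median -0.10, against 16.8% and 19.7%), with LGALS9, a ligand of TIM-3, at 1.07 ± 0.081 (adjusted p = 2.17e-08), VTCN1 at 0.90 ± 0.19 (adjusted p = 0.0014) and the ectonucleotidase NT5E at -0.61 ± 0.058 (adjusted p = 3.16e-07). Among the list genes named here, the HA-TRIM15 calls of CMTM6, IRF9, NFYA, NFYB, PSMB1, PSMB5, PVR and THOP1 were each lost without at least 1 of the libraries (adjusted p = 0.0532 to 0.175 where lost), and so was the shFOXRED1 call of MARCHF8 without shFOXRED1 replicate 1 or shControl replicate 1 (0.0925 and 0.0506).

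**Figure D4:**
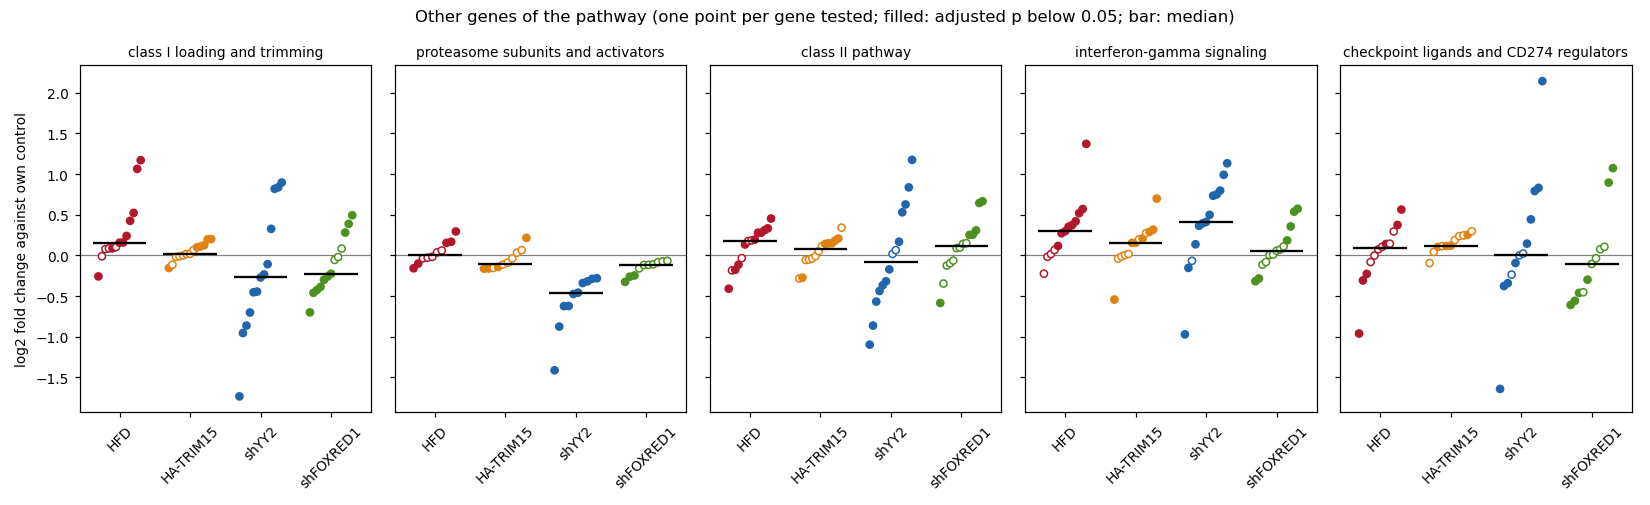
Log2 fold change of every tested gene on the 5 pathway lists in the 4 experiments, filled where the adjusted p was below 0.05, with a bar at the list's median. All 10 proteasome genes lie below 0 with shYY2, and SOCS3 (1.37) is the highest interferon-gamma signaling gene with HFD.

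The MHC-encoded genes that these members serve were counted unevenly. Of 17 on the list, 5 or 6 passed the filter in each experiment. The transporter gene TAP1 had at most 18 counts, the tapasin gene TAPBP at most 15, and HLA-DRA, the class II alpha chain, at most 1 count in any library, in cells with CD74 at 133 to 469 CPM. HLA-C had 136, 172 and 177 counts in the shControl libraries of the FOXRED1 experiment and 329, 708 and 288 counts with shFOXRED1. HLA-B had 537, 103 and 88 counts in the former and 330, 389 and 224 in the latter, so that 1 control library stood above all 3 treated libraries. Within groups with a mean of at least 1 CPM, the coefficient of variation over 3 libraries had a median of 26.9% over 44 values from 7 MHC genes and 3.40% over 80 values from the 10 members. Abundance differed as well. Between 5 and 50 CPM the medians were 23.9% (29 values, 5 genes) and 7.46% (18 values, 3 genes). In edgeR, 3 of the 5 tested MHC genes were called higher with shFOXRED1 (16.8% of all genes tested) and 3 of 6 with HFD (25.6%). With shYY2 2 of 6 were higher and 1 lower (36.8% and 38.1%). DESeq2 called fewer, with 2 higher with shFOXRED1, 1 higher with HFD, and 1 higher and 1 lower with shYY2. With HA-TRIM15 0 of 6 were called in edgeR, at an unadjusted p below 0.05 or in DESeq2. TAP2, the partner of TAP1 in the peptide transporter, was at 0.40 ± 0.099 with HFD (adjusted p = 0.00335), -1.22 ± 0.12 with shYY2 (adjusted p = 1.14e-07) and 0.50 ± 0.14 with shFOXRED1 (adjusted p = 0.00922). HLA-E with shYY2 had 1.54 ± 0.25 (adjusted p = 3.58e-05) and HLA-C with shFOXRED1 1.32 ± 0.23 (adjusted p = 0.000233).

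**Figure D5:**
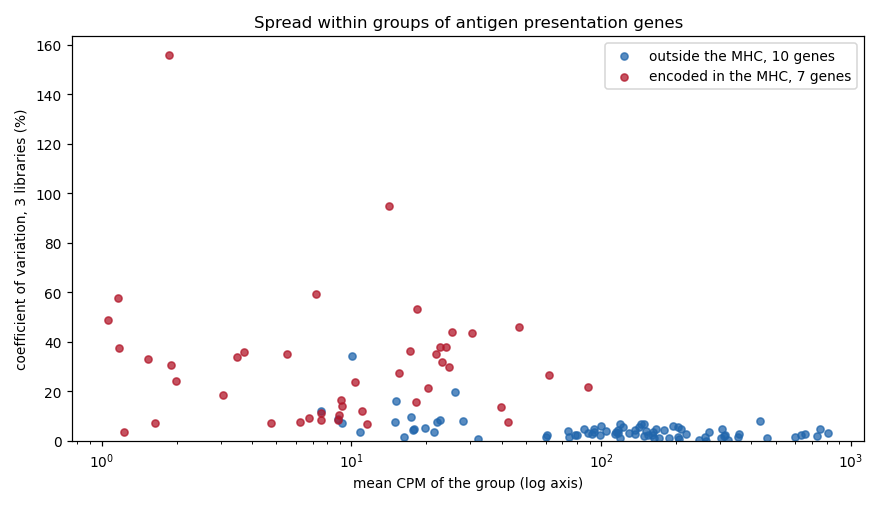
Coefficient of variation over the 3 libraries of a group (%, linear axis) against the group's mean CPM (log axis), for groups with a mean of at least 1 CPM. The MHC-encoded genes reach 156%, whereas the 10 genes outside the MHC stay at or below 34.1%, the value of PSMB10 in the shControl libraries of the FOXRED1 experiment.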

How the data were processed

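RNA was sequenced from 24 OE33 libraries, and the authors deposited 4 tables of raw counts per Ensembl gene, not normalized, with no aligner or counter given in the sources used here. The submitters' processing notes name the builds hg38 and mm10 without a role, and whether reads of mouse cells were set aside in the tumors is not stated. The labels name a directional library kit and the study's methods an undirected one, so the strand of counting was not settled. Symbols, exon lengths and overlaps came from GENCODE 29 (GRCh38). It held 94.3% of the 61860 identifiers, and 68.0% received a symbol. Promoters came from RefSeq (GRCh38.p14). The table of the HA-TRIM15 experiment was read by column number because its header has empty cells.

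Each experiment was fitted on its own with edgeR 4.0.16 (limma 3.58.1, R 4.3.3) by the quasi-likelihood test, treated against control, after filterByExpr (minimum count 10, minimum total 15) and TMM scaling. Benjamini-Hochberg adjustment covered every gene in the fit, and calls needed an adjusted p below 0.05. CPM used TMM library sizes, RPKM divided them by the union of exons, and SE was taken as the size of the log2 change over the root of its F statistic. Differences between experiments were tested as an interaction over 4 groups. A permutation test of 3 against 3 cannot go below p = 0.1 and was not used. Alternatives were DESeq2 size factors, DESeq2 1.42.0, the replicate block, no filter, a minimum of 10 counts in each library, a 1.2-fold minimum and each library left out. Named list genes were, per list and experiment, at most 3 with the largest absolute log2 fold change among those called, at a mean of at least 1 CPM and not overlapping. The members and gene lists were chosen with earlier results of these data known.

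Replicates of a group differed by more than sampling noise (chi-square per gene 1.47 to 7.94 over 24 pairs), so each was counted once. On data simulated from these counts, the test recovered 85.7% of 2-fold and 45.5% of 1.2-fold changes in HFD against ND, 93.2% and 47.1% in HA-TRIM15 against EV, 94.7% and 57.4% in shYY2 and 87.5% and 28.6% in shFOXRED1. False calls were 10.3%, 8.81%, 10.4% and 5.13% of calls, in that order. The simulation changed few genes (in HFD against ND, 66 of 16768 by 1.2-fold and 63 by 2-fold). Far more genes were called in the data, so the recovery and the false share do not carry over to these calls. Calls with an adjusted p just under 0.05 are still to be read as weak.

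The sample titles give replicate numbers. Whether numbers pair libraries was checked by the correlation of deviations from group means. Over all genes tested no experiment had all 3 correlations above 0.1 (shFOXRED1 0.032, 0.012 and 0.078). With a prior count of 10 in place of 2 they were 0.050, 0.027 and 0.13. Over genes with a mean of at least 10 CPM, a limit chosen after seeing the data, those of shFOXRED1 were 0.21, 0.13 and 0.41, and the other experiments had at least 1 below 0.1. The FOXRED1 libraries were therefore taken as possibly paired, on a hint from the data and not from the labels.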

Additional observations from a re-analysis of the deposited data

Results flagged for a closer look

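The effects of shYY2 and shFOXRED1, each against its own shControl, differed by an interaction test in 7 of the 10 members (edgeR, adjusted over 17146 genes). Of all genes in that test, 54.4% differed. NLRC5 differed by 0.62 on the log2 scale, higher with shYY2 in 3 of 3 libraries and with shFOXRED1 in 3 of 3 libraries. PSME1 differed by 0.32 and was called only with shYY2. CD274 differed by 0.40, lower in both knockdowns. PSMB10 differed by -0.84, higher in both knockdowns and more so with shFOXRED1. CD74, higher in both, differed by -0.17, a call lost in DESeq2 (adjusted p = 0.0682), under other size factors and filters (0.0677 to 0.267) and without each of 9 of the 12 libraries. PSME2 differed by -0.49 and ERAP1 by -0.44, lower in every shYY2 library and higher in every shFOXRED1 library than in the controls. The edgeR call of ERAP1 with shFOXRED1 was itself lost without any single library of that experiment (adjusted p = 0.0573 to 0.165). The 2 knockdowns were separate experiments with separate shControl cells, and CD274 differed between those controls (74.0 ± 2.95 and 28.0 ± 2.26 CPM), so experiment and knockdown cannot be told apart in these differences.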

How the results depend on the processing

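Single members in the 4 experiments had 480 results under the alternatives. Of these, 434 kept their direction and side of the threshold, 35 lost and 4 gained a call, and 7 changed sign, all in members that were not called. The 1.2-fold minimum among the alternatives was a limit set on the main fit, not a refit. With the replicate block no member's call changed in any experiment, shFOXRED1 included, where over all genes 3157 were higher and 3636 lower with the block, against 2650 and 3102 without it. The block kept 8 higher and 0 lower with HFD, 2 and 2 with HA-TRIM15, 6 and 4 with shYY2, and 7 and 2 with shFOXRED1. Requiring a fold change of at least 1.2 left 5 higher with HFD, 0 lower with HA-TRIM15, and 4 higher and 1 lower with shFOXRED1, and DESeq2 left 1 lower with HA-TRIM15. Leaving out each library in turn gave 0 to 4 members lower with HA-TRIM15 and 4 to 6 higher with shFOXRED1.

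The sign changes were all near 0. PSMB10 with HFD was 0.011 without ND replicate 2 and otherwise as low as -0.052 without 1 library. CD74 with HA-TRIM15 was -0.00032 in DESeq2, -0.011 without a filter, -0.0012 with the replicate block, and -0.053 and -0.017 without HA-TRIM15 replicate 1 and EV replicate 1, against up to 0.050 without HA-TRIM15 replicate 2, and ERAP2 was 0.0017 without HA-TRIM15 replicate 1. The knockdown difference was -0.018 for CIITA without shControl (FOXRED1) replicate 1 (up to 0.22 without replicate 3) and -0.0085 for ERAP2 without shFOXRED1 replicate 1 (up to 0.066 without shYY2 replicate 3). The difference of CD274 between diet and HA-TRIM15 was 0.00045 without a filter, 0.015 and 0.014 without HFD replicates 2 and 3, 0.0096 without ND replicate 1, 0.020 without HA-TRIM15 replicate 3 and 0.021 without EV replicate 1, and was lowest, at -0.028, without HFD replicate 1. The cause of these changes was not tested. Per library PSMB10 had 95 to 886 counts and CIITA 129 to 1232. Changes of 1.2-fold were recovered in at most 57.4% of simulated cases over all genes, with few genes changed, and recovery by abundance was not tested.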
